A study of Homo sapiens with 6 samples.

Results

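The 53 genes described here encode ribosome biogenesis and nucleolar factors. They were taken by symbol from the 26485 gene names of the count table, and all 53 were listed and had enough counts to be tested. RNA-seq was measured in 6 cultures of HEK293, a human embryonic kidney cell line. In 3 of them the long noncoding RNA (lncRNA) *HSALNG0134318* was knocked down by transient transfection of a Smart Silencer, which combines small interfering RNAs with antisense oligonucleotides, with Lipofectamine RNAiMAX. The other 3 were controls, labelled NC in the description and WT in the genotype, and the sources used here do not say what they received. The comparison asks which genes change when the lncRNA is reduced. Since the treatment of the controls is not known, an effect of transfection and an effect of the lncRNA cannot be told apart here. *HSALNG0134318* has no entry under its own name in the table, so its level was not analysed here.

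Ribosomes are assembled in the nucleolus, where RNA polymerase I transcribes the ribosomal RNA (rRNA) precursor. The small-subunit processome, built from the UTP-A and UTP-B complexes, the U3 small nucleolar RNA (snoRNA) and many further factors, forms on the nascent precursor and releases the future small (40S) subunit. Box C/D snoRNPs methylate riboses of the rRNA and H/ACA snoRNPs turn uridines into pseudouridines, while a separate set of factors assembles the large (60S) subunit. Genes of this pathway are known targets of the transcription factor MYC, which binds the E-box with its partner MAX. Their products are needed in quantity in dividing cells such as HEK293.

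Counts per culture totalled from 13900965 to 16869948. Normalized counts are counts divided by the library's size relative to the mean, after TMM scaling. A gene was called when edgeR's quasi-likelihood test gave an adjusted p under 0.05 over all 14877 genes tested. Among all of these, 10% were called in either direction, 5.4% higher and 4.64% lower after knockdown, and the median log2 fold change was -0.02. Control replicate 2 stood apart from controls 1 and 3 (root mean square log2 differences of 0.445 and 0.485, against 0.369 between those controls), and the calls made without it are given with those without each other culture. Of the cell markers, all 7 of HEK293 had enough counts to be tested and 6 genes of blood, liver and endothelium had from 0 to 5 counts in each culture. The RNA-binding protein gene *LIN28B* was the only one of the 7 that edgeR called (log2 fold change -0.47, adjusted p = 0.030).

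Of the 53 factors, 5 were higher after knockdown and none was lower by edgeR (9.43%, against 10% of all genes), and 48 were not called. At an unadjusted p under 0.05, 8 were higher and 3 lower (20.8% together, against 26.9% of all genes). DESeq2 and limma-voom called the same 5 and no other factor. The 5 were *BMS1* and *NOL10* of the small-subunit processome, *DKC1* of the H/ACA snoRNPs, and *PES1* and *NOC2L* of the 60S assembly factors. They rose by a log2 fold change from 0.42 to 0.68, while their partners *RCL1*, *GAR1*, *NHP2*, *NOP10*, *BOP1*, *WDR12* and *NOC3L* were not called. The median log2 fold change over the 53 was 0.05, with 32 values above 0 and 21 below (against 7035 and 7826 of all genes). The change was within 0.2 of 0 for 38 factors (71.7%), against 49.9% of all genes tested, and it stayed within 0.5 of 0 after 2 standard errors on either side for 44 of them. The 53 factors together took 0.821, 0.832 and 0.819% of the counts in the knockdown cultures and 0.769, 0.727 and 0.849% in the controls, so the groups overlapped. In bulk samples, fewer cells with a transcript and less of it per cell cannot be told apart.

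**Figure D1:**
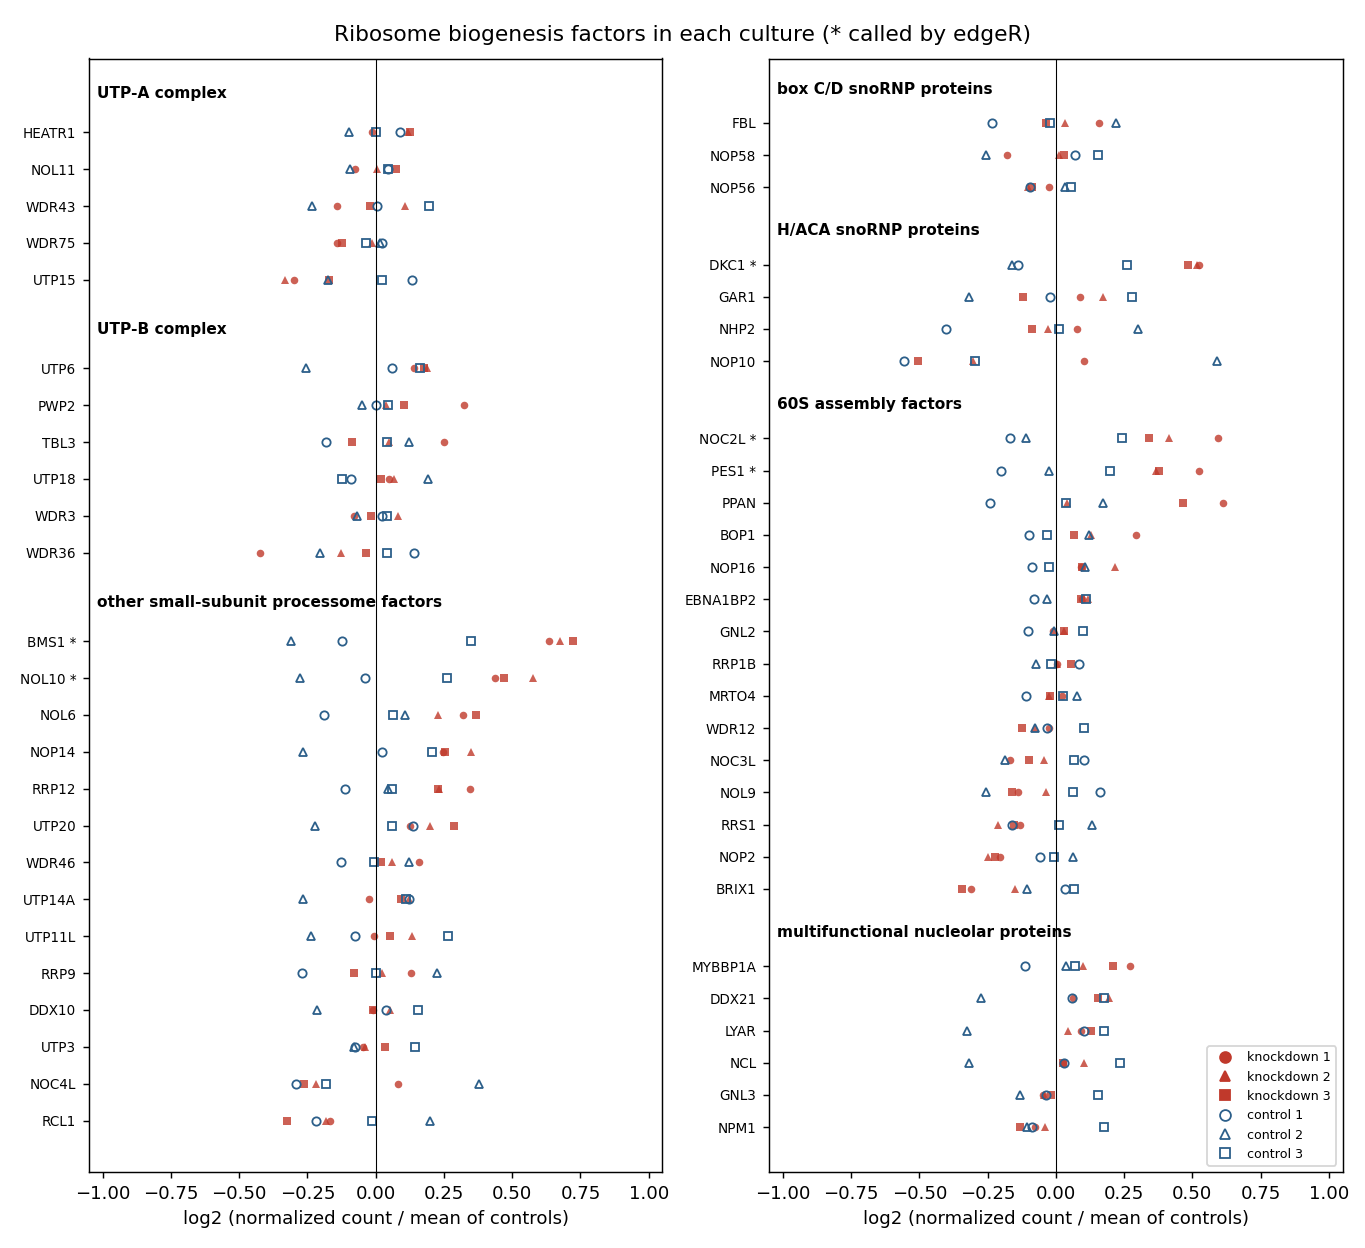
Each row is a factor and each symbol a culture, placed at the log2 of its normalized count over the mean of the 3 controls (filled red, knockdown; open blue, control; circle, triangle and square, replicates 1 to 3). The 5 factors marked with an asterisk were called, and in them all 3 knockdown cultures sit to the right of all 3 controls, while most other factors have knockdown symbols among the controls.

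Promoter windows of factors that rose, and of some that did not, were searched for the E-box. It is the short motif bound by MYC, a known regulator of the pathway. RefSeq promoters on GRCh38.p14, from 250 bases before to 50 bases after a transcription start, were matched by symbol for 47 of the 53 factors (54 promoters). *NOL10*, *RRP12*, *RRP1B*, *BOP1*, *RRS1* and *NOP58* had none in the table. The motif searched was the E-box CACGTG, which reads the same on both strands. Sequences run from 5′ to 3′ in the gene's direction in lower case, with each E-box in capitals. The windows of 4 of the called factors follow, and only that of *PES1* holds an E-box, starting 14 bases after the start site.
BMS1, chr10:42782545-42782844, plus strand: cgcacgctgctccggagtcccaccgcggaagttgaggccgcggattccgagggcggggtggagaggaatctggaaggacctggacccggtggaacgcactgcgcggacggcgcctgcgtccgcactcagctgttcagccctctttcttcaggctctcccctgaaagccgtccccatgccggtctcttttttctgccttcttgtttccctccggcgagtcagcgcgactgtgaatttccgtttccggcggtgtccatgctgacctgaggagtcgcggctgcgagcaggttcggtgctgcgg
DKC1, chrX:154762614-154762913, plus strand: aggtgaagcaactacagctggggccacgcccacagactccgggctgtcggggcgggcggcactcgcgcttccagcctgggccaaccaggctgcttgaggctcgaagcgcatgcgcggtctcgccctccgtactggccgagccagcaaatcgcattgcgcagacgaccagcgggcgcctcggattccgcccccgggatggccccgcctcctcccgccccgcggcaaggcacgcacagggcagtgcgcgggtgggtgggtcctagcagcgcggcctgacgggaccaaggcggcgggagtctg
NOC2L, chr1:959207-959506, minus strand: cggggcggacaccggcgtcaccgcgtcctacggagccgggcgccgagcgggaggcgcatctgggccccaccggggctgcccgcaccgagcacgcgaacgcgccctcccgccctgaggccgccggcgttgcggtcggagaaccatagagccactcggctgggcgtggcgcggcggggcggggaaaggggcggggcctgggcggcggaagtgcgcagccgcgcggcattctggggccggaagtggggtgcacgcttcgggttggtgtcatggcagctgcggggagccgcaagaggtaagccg
PES1, chr22:30591861-30592160, minus strand: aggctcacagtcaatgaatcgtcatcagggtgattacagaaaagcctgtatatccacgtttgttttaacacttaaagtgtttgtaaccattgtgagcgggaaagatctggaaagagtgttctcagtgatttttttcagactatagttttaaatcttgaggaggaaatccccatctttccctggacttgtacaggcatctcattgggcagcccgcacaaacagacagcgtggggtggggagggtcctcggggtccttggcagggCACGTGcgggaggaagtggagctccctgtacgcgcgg
For comparison, the windows of 3 factors that were not called follow. *NOP10* and *UTP18* were chosen because they hold 2 copies in 1 window, and *FBL* because its single copy lies 7 bases after the start of a highly expressed gene.
NOP10, chr15:34343087-34343386, minus strand: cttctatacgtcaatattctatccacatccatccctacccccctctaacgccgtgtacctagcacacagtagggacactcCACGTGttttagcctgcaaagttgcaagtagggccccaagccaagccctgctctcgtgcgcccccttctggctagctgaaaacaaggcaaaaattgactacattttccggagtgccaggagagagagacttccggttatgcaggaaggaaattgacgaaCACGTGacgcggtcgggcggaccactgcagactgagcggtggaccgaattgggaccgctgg
UTP18, chr17:51260296-51260595, plus strand: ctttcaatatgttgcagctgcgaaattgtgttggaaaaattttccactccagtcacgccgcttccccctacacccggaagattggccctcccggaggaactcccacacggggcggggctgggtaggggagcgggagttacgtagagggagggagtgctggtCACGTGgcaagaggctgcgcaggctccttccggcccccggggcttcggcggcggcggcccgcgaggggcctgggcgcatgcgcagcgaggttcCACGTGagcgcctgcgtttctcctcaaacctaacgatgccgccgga
FBL, chr19:39846330-39846629, minus strand: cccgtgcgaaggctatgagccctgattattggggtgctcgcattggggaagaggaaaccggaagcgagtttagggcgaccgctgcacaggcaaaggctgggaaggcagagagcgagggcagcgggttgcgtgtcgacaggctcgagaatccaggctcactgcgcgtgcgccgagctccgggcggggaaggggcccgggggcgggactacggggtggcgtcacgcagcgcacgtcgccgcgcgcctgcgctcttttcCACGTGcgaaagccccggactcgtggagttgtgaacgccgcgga

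The E-box was found in 23 of the 47 factors (48.9%), against 12.4% of the 11461 tested genes with a promoter in the table and 21 of 92 (22.8%) of the other ribosome biogenesis genes listed. Counted by window, 44.4% of the factors' promoters held it, against 7.26% of all 35116. Of the 26 copies in the factors' promoters, 17 (65.4%) began after the start site, against 11.1% of the copies in all promoters. Split by the motif, 1 of the 23 factors with an E-box and 3 of the 24 without were called, against 10% of all genes tested. The median log2 fold changes with and without an E-box were 0.06 and 0.00. *NOL10*, also called, had no promoter to search. These counts are too small to compare. A match is a description of these letters and says nothing about binding in these cells.

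**Figure D2:**
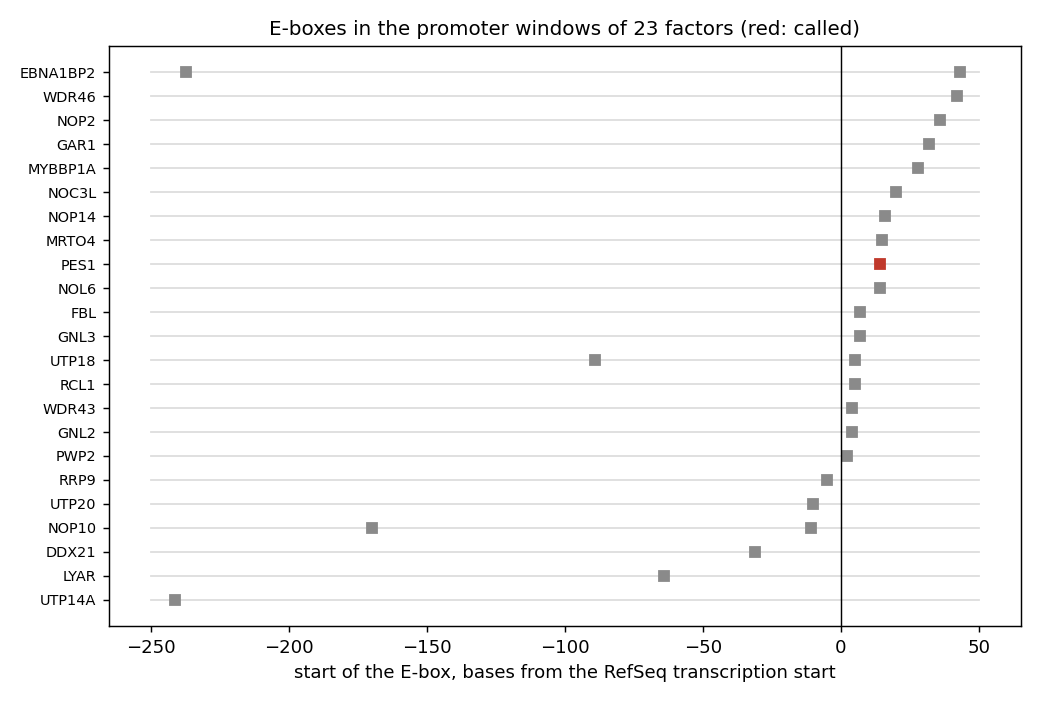
Each row is 1 of the 23 factors with an E-box, each grey line the promoter window, and each square the start of a copy, in bases from the RefSeq transcription start at 0 (red, called; grey, not called). Of the 26 copies, 17 lie to the right of the start, and the single red square is *PES1* at 14.

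MYC acts with MAX, and several related proteins compete for that partner. None of the 10 genes of this network was called by edgeR (1 higher and 0 lower at an unadjusted p under 0.05, and 0 called by DESeq2 and limma-voom). *MYC* had 256.4, 297.3 and 301.6 normalized counts in the knockdown cultures and 255.1, 233.8 and 221.2 in the controls, values that touch but do not overlap (log2 fold change 0.27, standard error (SE) 0.13, adjusted p = 0.22 by edgeR). *MYCN*, its paralogue, had 41.45, 53.20 and 46.16 against 59.18, 66.05 and 57.62, below all controls (log2 fold change -0.38). *MNT*, a repressor that pairs with MAX, had 681.5, 676.0 and 653.8 against 511.2, 605.1 and 581.3, above all controls (0.24). The knockdown and control values overlapped for *MAX*, *MXD1*, *MXD3*, *MXD4*, *MXI1*, *MLX* and *MGA*, whose log2 fold changes ran from -0.09 to 0.18.

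The UTP-A complex, which joins transcription of the rRNA gene to the start of processing, had 0 of its 5 members called by edgeR (0 higher and 1 lower at an unadjusted p under 0.05) and a median log2 fold change of -0.01. *HEATR1*, *NOL11*, *WDR43* and *WDR75* had log2 fold changes from -0.09 to 0.08. *UTP15* differed most. It had 502.2, 490.3 and 548.6 normalized counts in the knockdown cultures and 677.5, 546.2 and 627.6 in the controls, so that only control replicate 2 fell among the knockdown values (log2 fold change -0.26, SE 0.12, adjusted p = 0.17 by edgeR). The UTP-B complex, a scaffold of WD-repeat proteins that binds the precursor with U3, had 0 of 6 members called, 0 also at an unadjusted p under 0.05, and a median of 0.06. Its most different member, *WDR36*, had 1005, 1236 and 1318 against 1488, 1170 and 1390, with control replicate 2 again among the knockdown values (-0.18, adjusted p = 0.37). *PWP2*, *TBL3*, *WDR3*, *UTP6* and *UTP18* lay between 0.00 and 0.17 in size.

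The other small-subunit processome factors held 2 of the 5 called genes, and 11 of these 14 factors had a log2 fold change above 0. *BMS1*, a GTPase that works with RCL1 in the maturing particle, lies on chromosome 10 from 42782795 to 42834937 on the plus strand (GENCODE release 44, hg38). It had 2845, 2924 and 3022 normalized counts in the knockdown cultures and 1683, 1477 and 2335 in control replicates 1, 2 and 3. All knockdown values were above all controls, and control replicate 3 was the nearest. The log2 fold change was 0.68, the largest of the 53 (SE 0.14, fold change 1.6, adjusted p = 0.013 by edgeR). *RCL1*, its partner, had 370.1, 366.2 and 331.7 against 357.1, 476.6 and 411.5, and the groups overlapped (-0.22, adjusted p = 0.32). Within each culture the log2 ratio of *BMS1* over *RCL1* counts was 3.04 ± 0.13 (SD, n = 3) after knockdown and 2.12 ± 0.45 in the controls, a difference of 0.92. The groups did not overlap, and the two-sided exact permutation p was 0.1, the smallest that 3 against 3 cultures can give.

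*NOL10*, a component of the processome with WD repeats (chromosome 2, 10562347 to 10689987, minus strand), had 1075, 1184 and 1100 normalized counts after knockdown and 772.4, 655.1 and 951.7 in the controls. It rose by a log2 fold change of 0.50 (SE 0.13, adjusted p = 0.034 by edgeR), with no overlap of the groups. Among the factors not called, *NOL6* was the most different, with 1129, 1058 and 1167 against 793.9, 973.7 and 944.5 (log2 fold change 0.31, SE 0.10, adjusted p = 0.090). *RRP12*, which acts late and in export of the small subunit, had 1499, 1387 and 1381 against 1092, 1219 and 1229 (0.27, adjusted p = 0.087). *NOP14* was also above all controls (0.28, adjusted p = 0.14). *NOP14* and *NOC4L* form a pair in the processome, and their log2 ratio within cultures did not separate the groups (1.76 ± 0.22 against 1.36 ± 0.58, exact permutation p of 0.4). The remaining *UTP3*, *UTP11L* (now *UTP11*), *UTP14A*, *UTP20*, *WDR46*, *RRP9* and *DDX10* had log2 fold changes from -0.02 to 0.21, and *UTP20*, at 0.21, had the highest of these.

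The table also counts pseudogenes of *BMS1*, which share sequence with it, so reads could have been split between them by the counting. Of 7 listed, *BMS1P17* and *BMS1P18* had 0 counts in every culture and 5 were tested. *BMS1P20* (chromosome 22, 22303224 to 22310401, plus strand) went the other way from *BMS1*, with 263.2, 256.6 and 268.4 normalized counts after knockdown and 493.9, 399.0 and 467.1 in the controls (log2 fold change -0.79, SE 0.12, adjusted p = 0.0030 by edgeR). *BMS1P4*, *BMS1P5*, *BMS1P6* and *BMS1P21* were not called, with log2 fold changes of -0.02, 0.05, 0.16 and 0.31. *BMS1P5* and *BMS1P6* are now named *BMS1P1* and *BMS1P2*. By blastn the aligned parts of the 5 transcripts were from 94.3 to 96.5% identical to *BMS1*, and *BMS1P20* was the closest over 1127 bases. The mean gain of *BMS1* was 1098 normalized counts and the mean loss of *BMS1P20* was 190.6. The sum of *BMS1* and its listed pseudogenes was 3957, 4251 and 4339 after knockdown and 3224, 2618 and 3793 in the controls. It did not overlap and was 1.3 times higher by the means. *BMS1* alone made up 2930 of the knockdown mean of 4182 and was already above all controls, so this separation adds no support of its own. Splitting of reads was not tested. On chromosome 22, *BMS1P20* overlaps the interval that the study's supplement lists for *HSALNG0134318*.

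**Figure D3:**
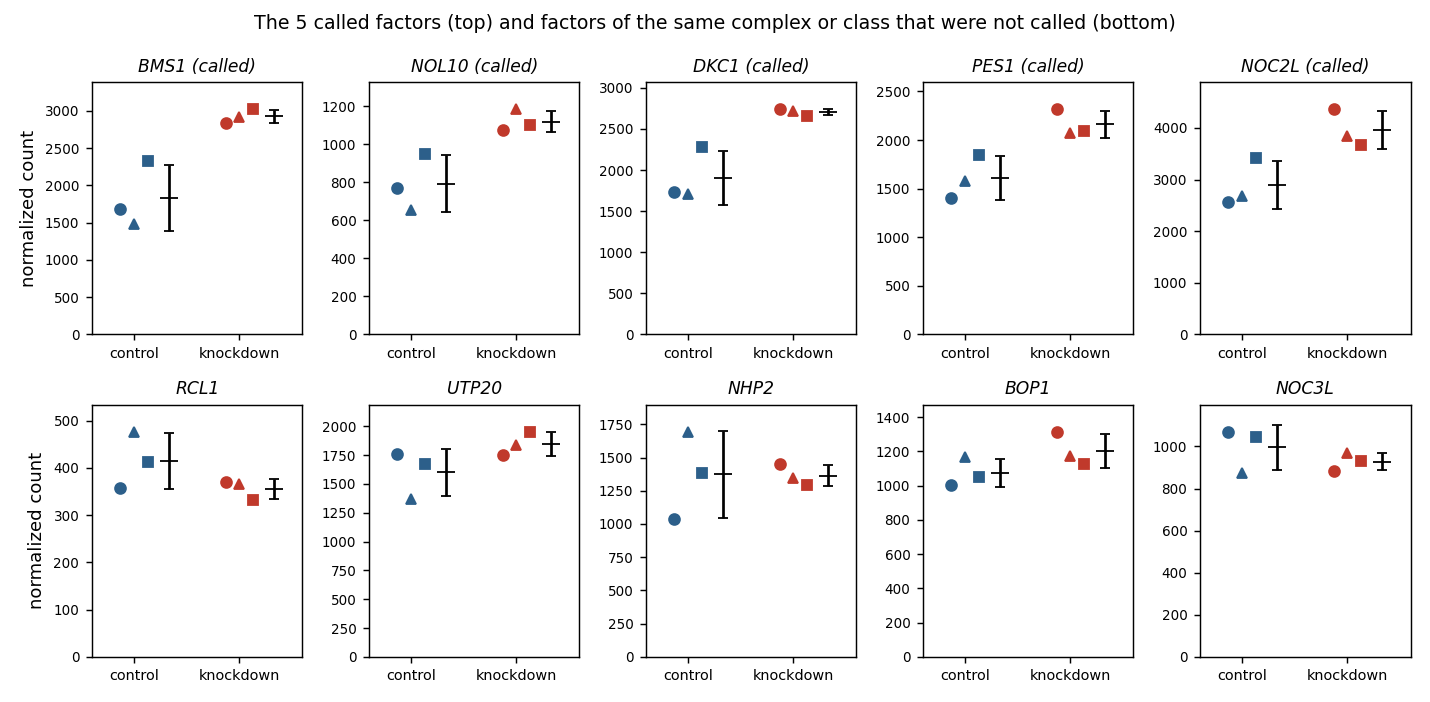
Normalized counts per culture (y axes from 0) of the 5 called factors in the top row and of 5 factors from the same complex or class that were not called in the bottom row. Symbols are replicates 1 to 3 (circle, triangle, square; blue control, red knockdown), and the black marks are the mean ± SD of 3 cultures; in the top row every red symbol is above every blue one, while in the bottom row red symbols sit among or close to the blue ones.

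The box C/D snoRNP proteins were among the most abundant of the 53, and 0 of the 3 were called by edgeR (0 also at an unadjusted p under 0.05). On a scale of level per transcript length and library size (FPKM, computed here from the counts), the controls were at 312 for the methyltransferase *FBL*, 173 for *NOP56* and 95.5 for *NOP58*. *NOP56*, the most different, had 4903, 4655 and 4704 normalized counts after knockdown and 4679, 5108 and 5195 in the controls (log2 fold change -0.07, SE 0.08, adjusted p = 0.63 by edgeR). *FBL* and *NOP58* had log2 fold changes of 0.06 and -0.04. The within-culture log2 ratio of *NOP56* over *NOP58* was 0.77 ± 0.15 after knockdown and 0.81 ± 0.24 in the controls (exact permutation p of 0.8).

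Of the 4 H/ACA proteins, only *DKC1* was called (25%, against 10% of all genes). *DKC1* encodes dyskerin, the pseudouridine synthase, which also binds telomerase RNA, and lies on chromosome X from 154762742 to 154777689 on the plus strand. It had 2739, 2724 and 2664 normalized counts after knockdown and 1729, 1703 and 2284 in the controls. The knockdown values were close to each other and above all controls (log2 fold change 0.51, SE 0.11, fold change 1.42, adjusted p = 0.018 by edgeR). The other H/ACA proteins were not called. *GAR1* had 481.0, 510.1 and 416.5 against 445.9, 362.4 and 548.4 (0.06), and *NHP2* had 1451, 1347 and 1295 against 1041, 1694 and 1386 (-0.01). *NOP10*, the smallest subunit, had 293.0, 221.2 and 192.2 against 185.7, 410.6 and 222.2, with control replicate 2 far above the rest (-0.22, SE 0.29, adjusted p = 0.68). Within cultures, the log2 ratio of *DKC1* over *GAR1* was 2.53 ± 0.13 after knockdown and 2.08 ± 0.14 in the controls, and that of *DKC1* over *NHP2* was 0.99 ± 0.07 and 0.49 ± 0.42. Neither ratio overlapped between the groups (exact permutation p of 0.1 for each), and both were chosen knowing that *DKC1* itself did not overlap. In level per length, *DKC1* was at 51.2 FPKM in the controls, below *NHP2* at 117 and above *NOP10* at 35.7 and *GAR1* at 29.6.

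Among the 15 factors of the 60S subunit, *PES1* and *NOC2L* rose (13.3%, against 10% of all genes called). The other 13 were not called, and the median log2 fold change of the 15 was 0.02. *PES1* forms the PeBoW complex with BOP1 and WDR12, which is required for the maturation of the large-subunit rRNAs, and lies on chromosome 22 from 30576625 to 30607083 on the minus strand. It had 2316, 2075 and 2091 normalized counts after knockdown and 1400, 1580 and 1848 in the controls, without overlap (log2 fold change 0.42, SE 0.11, adjusted p = 0.031 by edgeR). *BOP1* had 1314, 1173 and 1124 against 1002, 1166 and 1050 (0.17, adjusted p = 0.33), and *WDR12* had 884.9, 853.3 and 826.6 against 879.6, 855.0 and 967.1 (-0.08, adjusted p = 0.67). The log2 ratio of *PES1* over *WDR12* was 1.34 ± 0.05 after knockdown and 0.83 ± 0.14 in the controls. That of *PES1* over *BOP1* was 0.85 ± 0.04 and 0.58 ± 0.21, and both ratios separated the groups (exact permutation p of 0.1). The ratio over *BOP1* did so only narrowly, with 0.82, 0.82 and 0.90 against 0.48, 0.44 and 0.81 in control replicate 3.

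*NOC2L*, which acts with NOC3L in large-subunit particles and is also known as an inhibitor of histone acetyltransferases, lies on chromosome 1 from 944203 to 959309 on the minus strand. It had 4361, 3851 and 3662 normalized counts after knockdown and 2574, 2677 and 3420 in the controls (log2 fold change 0.45, SE 0.12, adjusted p = 0.034 by edgeR). *NOC3L* had 885.8, 967.0 and 930.7 against 1070, 874.7 and 1043, and the groups overlapped (-0.10, adjusted p = 0.58). The log2 ratio of *NOC2L* over *NOC3L* was 2.09 ± 0.18 after knockdown and 1.53 ± 0.23 in the controls, without overlap (exact permutation p of 0.1). *SAMD11* overlaps *NOC2L* on the chromosome and was not called (-0.35, adjusted p = 0.15 by edgeR), and *TCN2* overlaps *PES1* with at most 15 counts in a culture. For *DKC1* and *NOL10*, no named protein-coding or lncRNA gene of the table overlaps their exons. The 8 partner ratios were chosen after the values were seen, and over these 8 a p of 0.1 became 0.13 after Benjamini-Hochberg adjustment. *BMS1*, *DKC1*, *PES1* and *NOC2L* were already above all controls themselves, so the separation of their ratios adds no support of its own.

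A pair of 60S factors lay below all controls without passing the test. *BRIX1*, a Brix-domain factor of early large-subunit particles, had 1323, 1479 and 1294 normalized counts after knockdown and 1679, 1528 and 1718 in the controls (log2 fold change -0.26, SE 0.09, adjusted p = 0.097 by edgeR). *NOP2*, an rRNA cytosine methyltransferase, had 1990, 1931 and 1966 against 2199, 2396 and 2281 (-0.22, SE 0.08, adjusted p = 0.11). *PPAN* was the most different of the class that was not called, at low counts of 127.2, 85.54 and 114.9 against 70.41, 93.71 and 85.39 (0.39, SE 0.21, adjusted p = 0.25). The read-through gene with its neighbour *P2RY11* had from 0 to 2 counts in each culture. *NOP16*, *NOL9*, *RRS1*, *EBNA1BP2*, *GNL2*, *MRTO4* and *RRP1B* had log2 fold changes from -0.16 to 0.14.

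The 6 multifunctional nucleolar proteins included the most abundant genes of the 53 and 0 of them were called by edgeR (0 also at an unadjusted p under 0.05). *NPM1*, nucleophosmin, was at 772 FPKM in the controls and 730 after knockdown, and *NCL*, nucleolin, at 379 and 394. *MYBBP1A*, a nucleolar protein that also binds transcription factors, was the most different, with 2999, 2662 and 2871 normalized counts after knockdown and 2297, 2550 and 2610 in the controls (log2 fold change 0.19, SE 0.09, adjusted p = 0.19 by edgeR). *NCL* had 22860, 24090 and 22860 against 22890, 17970 and 26410, so its controls spread wider than the difference between the groups (0.05). *DDX21*, an RNA helicase, *LYAR* and *GNL3*, nucleostemin, lay at 0.14, 0.09 and -0.04.

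Introns of several of these genes carry the snoRNAs that the pathway uses. GENCODE places 26 snoRNA genes within the spans of 8 of the 53 factors (15.1%), against 1.58% of the 13473 protein-coding genes tested. The hosts were *NOL11*, *WDR43*, *NOP56*, *NOP58*, *DKC1*, *PPAN*, *NCL* and *GNL3*. *DKC1*, which holds *SNORA36A* and *SNORA56*, was the only host called, and the median log2 fold change was -0.01 for the hosts and 0.06 for the other factors. The snoRNAs themselves were not analysed here.

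Other genes of the pathway, listed by step, were described in the same way. Of 108 tested, 6 were higher and 2 lower by edgeR (7.41%, against 10% of all genes), with a median log2 fold change of -0.01. Of RNA polymerase I and its factors, 3 of 16 were higher (18.8%, against 5.4% of all genes). This list was drawn up with earlier results of these data known, so its share is a description only. *NOLC1*, a phosphoprotein that binds both kinds of snoRNP, had 5137, 5460 and 5334 normalized counts after knockdown and 1892, 1692 and 2267 in the controls (log2 fold change 1.45, SE 0.11, fold change 2.72, adjusted p = 4.8e-05). *TCOF1*, whose product treacle is related to NOLC1 in sequence and is mutated in Treacher Collins syndrome, had 5063, 4776 and 4596 against 2622, 2492 and 2875 (0.85, SE 0.09, adjusted p = 0.00028). *POLR1A*, the largest polymerase subunit, rose by 0.39 (adjusted p = 0.020). All of these separated the groups fully, and the change in *NOLC1* was larger than that of any of the 53.

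Of the 31 further small-subunit factors only *DHX37* was called. This helicase, which releases U3 from the processome with the help of UTP14A, had 1151, 1022 and 1070 normalized counts after knockdown and 409.2, 499.8 and 509.3 in the controls (log2 fold change 1.19, SE 0.12, adjusted p = 0.00018 by edgeR). *UTP14A* itself had 903.2, 998.3 and 977.9 against 997.9, 763.1 and 991.8 (0.07, adjusted p = 0.77). Of the 36 further 60S factors, the helicases *DDX24* (0.55, adjusted p = 0.0080) and *DDX54* (0.42, adjusted p = 0.016) rose and the helicase *DDX18* fell (-0.50, adjusted p = 0.013). None of the 13 genes of the RNA exosome and its cofactors, which trim rRNA ends, was called by edgeR (0 higher and 2 lower at an unadjusted p under 0.05), DESeq2 or limma-voom. Of the 12 noncoding snoRNA host genes, *ZFAS1* was called, with 153.3, 215.9 and 199.7 against 266.3, 362.4 and 282.9 (-0.68, adjusted p = 0.028), and their median was -0.19.

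**Figure D4:**
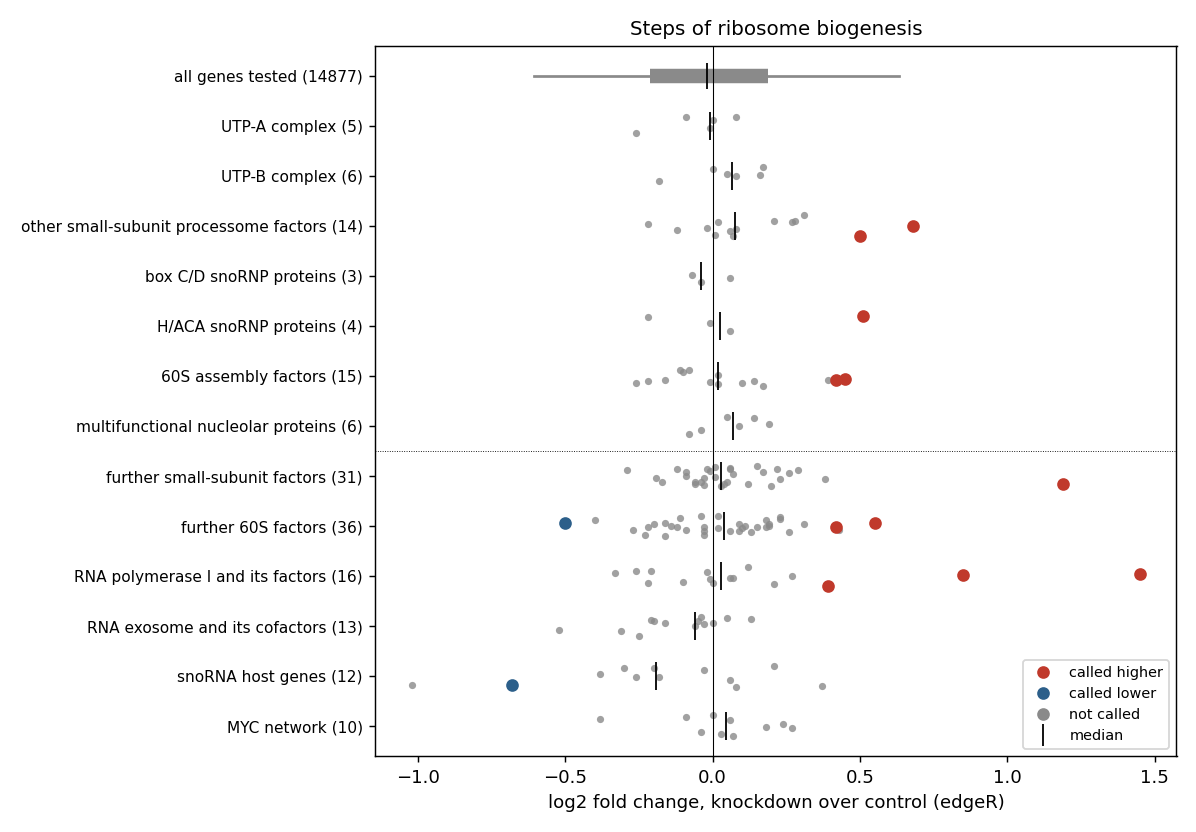
Log2 fold change (knockdown over control, edgeR) of every tested gene by step, with the 53 factors above the dotted line and the other lists below (red, called higher; blue, called lower; grey, not called; black tick, median). The top bar spans the middle 50% of all genes tested and its thin line the 5th to 95th percentiles; the medians of the 7 classes of factors lie between -0.04 and 0.07, and *NOLC1*, *DHX37* and *TCOF1* are the 3 red points farthest to the right.

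Knockdown and control cultures were fully separate for 11 of the 53 factors (20.8%, against 32.2% of all genes), of which 9 were above the controls (against 16.4% of all genes) and 2 below (against 15.8%). The controls spread more than the knockdown cultures. The median SD of log2 values was 0.0717 after knockdown and 0.173 in the controls over the 53 factors, against 0.112 and 0.192 over all genes. Part of this spread followed base composition: the log2 of control replicate 2 over the mean of controls 1 and 3 was higher for transcripts of higher GC content (Pearson's r = 0.59, Spearman's rho = 0.59 across the 53 genes, and 0.49 and 0.56 across 14476 genes) and was lower for long transcripts (-0.49 and -0.37 against log2 length). *NOP10*, *NOC4L* and *NHP2* were 1.01, 0.62 and 0.48 above the other controls on the log2 scale in this culture, and *LYAR*, *NCL*, *GAR1* and *BMS1* were -0.47, -0.46, -0.46 and -0.44. The log2 fold changes themselves varied less with GC content (r = 0.26, rho = 0.36 across the 53), but more than across all 14476 genes (0.05 and 0.07). These points share the same 6 libraries.

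**Figure D5:**
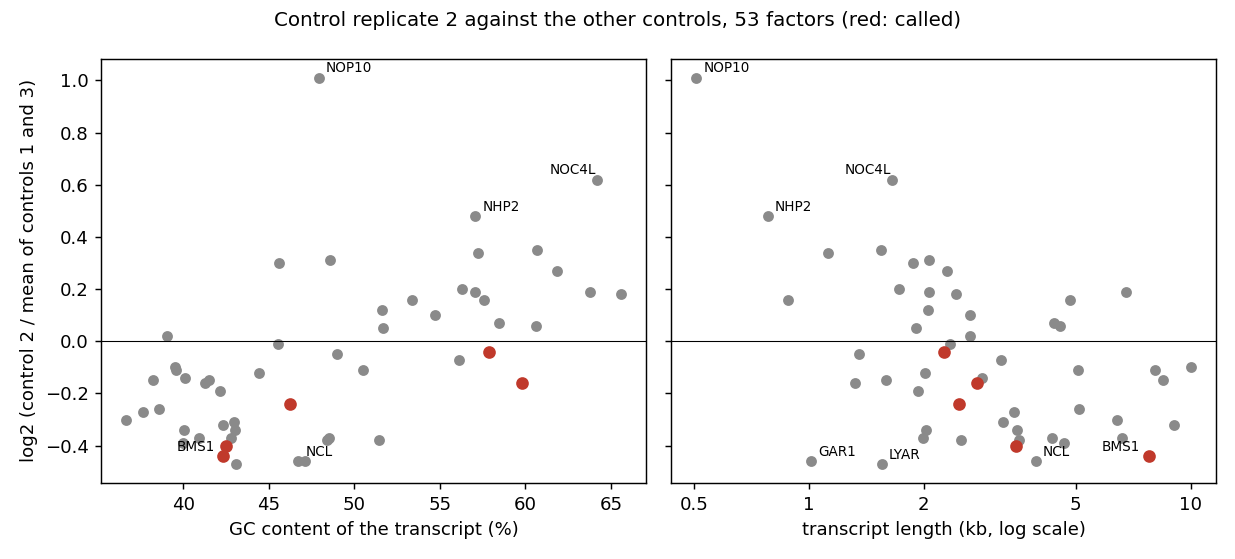
Each point is 1 of the 53 factors; the y axis is the log2 of its normalized count in control replicate 2 over the mean of control replicates 1 and 3, and the x axes are the GC content (left) and the length on a log axis (right) of its GENCODE transcript (red, called; grey, not called). *NOP10*, *NOC4L* and *NHP2*, with transcripts shorter than most, lie highest, and the 5 called factors lie below 0, with *BMS1* the lowest of these at -0.44.

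The calls were lost when any 1 of 4 cultures was left out. Without knockdown replicate 1, 2 or 3 or without control replicate 1, none of the 53 was called by edgeR. The share of all genes called in these fits, by adjusted p, was 3.92, 3.55, 3.51 and 4.44%. At an unadjusted p under 0.05 they gave 6, 8, 6 and 7 factors higher and 1, 1, 0 and 3 lower. The unadjusted share of all genes was not computed for these fits, and with all 6 cultures it was 26.9%. The unadjusted counts therefore cannot be set against the shares called. Without control replicate 2, the 5 called factors, *NOL6* and *RRP12* were higher and *BRIX1* and *UTP15* lower, beside 8.45% of all genes higher and 8.21% lower. Without control replicate 3, the 5 and *NOP14* were higher, beside 7.18% of all genes. All knockdown values of the 5 were above all controls, so leaving out 1 culture does not test the direction of their change. In these fits the log2 fold change ran from 0.54 to 0.90 for *BMS1* and 0.38 to 0.66 for *NOL10*. It ran from 0.43 to 0.67 for *DKC1*, 0.33 to 0.54 for *PES1* and 0.38 to 0.60 for *NOC2L*. With each library corrected for GC content and length, 2850 of 14476 genes were called, against 1494 of 14877 without the correction. Of the 5 factors, *BMS1*, *NOL10*, *DKC1* and *PES1* were called in this fit. *NOC2L* was not (log2 fold change 0.44, against 0.45 without the correction), while *UTP20* was called higher (0.21 in both) and *NOP2* lower (-0.24 against -0.22). Across all 15 alternative settings the adjusted p ran from 0.00018 to 0.068 for *BMS1*, from 0.0029 to 0.14 for *NOL10*, from 0.0016 to 0.079 for *DKC1*, from 0.0078 to 0.13 for *PES1* and from 0.0053 to 0.15 for *NOC2L* (edgeR, DESeq2 and limma-voom). Of the genes outside the 53, *NOLC1*, *TCOF1*, *DHX37* and *DDX24* were called higher in all 15 and *BMS1P20* was called lower in all 15.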

How the data were processed

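Poly(A) RNA of 3 knockdown and 3 control HEK293 cultures was sequenced with a stranded protocol. The authors deposited featureCounts gene counts without normalization, as 1 table for the series. The submitters' processing notes name FastQC 0.11.9, Trim Galore 0.6.6, STAR 2.7.9a, featureCounts 2.0.1 and hg38, and rRNA reads were removed before alignment according to the methods. The gene annotation, the strand setting and the handling of reads with several matches are not given in the sources used here, so overlapping genes and pseudogenes are uncertain. In 13 rows the gene name had been turned into a date.

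Counts were analysed with edgeR 4.0.16 in R 4.3.3 (TMM, filterByExpr, robust quasi-likelihood F test, all 6 cultures, no covariate, Benjamini-Hochberg over 14877 genes); the study's DESeq2 (1.42.0 here) and limma-voom (limma 3.58.1) were alternatives. The alternatives also changed the scaling, the filter on low counts, a correction for GC content and length (loess, span 0.3) and the cultures left out. The biological coefficient of variation was 12.4%. The scripts were tested on simulated counts. Partner genes were compared by exact permutation of the log2 ratio of counts, and 3 against 3 cultures cannot go below p = 0.1. Intervals and SDs cover the spread between cultures, which the series calls biological replicates.

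Positions, lengths and GC content came from GENCODE release 44 (23161 names matched by symbol, 1357 by an older symbol, 1967 unmatched), promoters from RefSeq (GRCh38.p14), and identities from blastn (BLAST 2.17.0). Values in every culture are given for called factors and for the uncalled factor of each class with the largest change. From other lists, at most 3 called genes were named by smallest p, and *BRIX1*, *NOP2*, *NOP14*, *RRP12* and partners of called factors were added after their values were seen. The members and lists were chosen with earlier results of these data known.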

Additional observations from a re-analysis of the deposited data

How the results depend on the processing

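The number of the 53 factors called was from 0 to 9 when 1 culture was left out, with 0 without knockdown replicate 1, 2 or 3 or control replicate 1, and the number called lower was 0 to 2 (1 with the GC content and length correction). Genes called over the whole table numbered 1494, against 530 to 2512 when 1 culture was left out, 2850 with the correction and 2411 with the correction and the replicate block. For the other ribosome biogenesis genes the count was 8, against 4 to 16, 14 and 14. For *BMS1* and its pseudogenes it was 2, against 1 to 2.

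Replicates with the same number did not deviate together (correlations of -0.199, -0.112 and -0.044). With 3 cultures per group, each centred on its group's mean, these values cannot exclude that the numbers pair the cultures. With the replicate number as a block 1333 genes were called, and 5 of the 53, which were the same 5 factors. With the correction and the block the same 5 were called, *NOC2L* included, and *UTP20* and *NOP2* were not.

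The sign of 31 of 77 single genes changed in some setting, and none of these 31 was called. With the GC content and length correction the log2 fold changes were 0.029 for *WDR43*, -0.008 for *TBL3*, 0.036 for *WDR3*, 0.026 for *NHP2*, -0.025 for *RRP1B* and 0.008 for *BMS1P4*. With the correction and the block they were 0.031, -0.008, 0.037, 0.032, -0.024 and 0.004, and 0.001 for *NOP58*. *WDR3* was at 0.002 with DESeq2's size factors and in its Wald test, 0.009 with library sizes alone and 0.004 with at least 10 counts in every culture. *NHP2* was at 0.014 with the replicate block and with limma-voom, and *MRTO4* at 0.002 with library sizes alone. *MXD4* was at 0.005 with library sizes alone, 0.001 with at least 10 counts, 0.007 with the block and 0.004 with limma-voom. Leaving out 1 culture gave ranges that crossed 0: -0.042 to 0.04 for *NOL11*, -0.119 to 0.101 for *WDR43*, -0.018 to 0.154 for *TBL3*, -0.046 to 0.035 for *WDR3*, -0.007 to 0.152 for *UTP18*, -0.055 to 0.067 for *UTP3*, -0.044 to 0.222 for *UTP11L*, -0.052 to 0.131 for *UTP14A*. They were -0.252 to 0.113 for *NOC4L*, -0.091 to 0.154 for *RRP9*, -0.085 to 0.102 for *DDX10*, -0.049 to 0.179 for *FBL*, -0.155 to 0.047 for *NOP58*, -0.083 to 0.223 for *GAR1*, -0.175 to 0.169 for *NHP2*, -0.428 to 0.21 for *NOP10*. Further ranges were -0.031 to 0.074 for *GNL2*, -0.06 to 0.032 for *MRTO4*, -0.013 to 0.066 for *RRP1B*, -0.084 to 0.193 for *NCL*, -0.131 to 0.023 for *NPM1*, -0.052 to 0.191 for *LYAR*, -0.099 to 0.053 for *GNL3*, -0.068 to 0.008 for *MAX*. The last were -0.106 to 0.13 for *MXD4*, -0.085 to 0.112 for *MLX*, -0.053 to 0.169 for *MGA*, -0.125 to 0.046 for *BMS1P4*, -0.085 to 0.196 for *BMS1P5*, -0.035 to 0.306 for *BMS1P6*, -0.112 to 0.676 for *BMS1P21*. The causes were not tested. Power to detect small changes was not computed.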
